A study of Mus musculus with 12 samples.

Results

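The genes described here are the nuclear genes for the oxidative phosphorylation system, taken by symbol: the Nduf genes of complex I and its assembly, Sdha to Sdhd, the Uqcr genes with Cyc1 and Cycs, the Cox4 to Cox8 genes and the Atp5 genes. The rule found 92 of the 24020 genes in the count table and works on symbols alone. They were sorted by hand into 7 core and 29 supernumerary subunits of complex I, 4 complex I assembly factors, 4 subunits of complex II, 10 genes of complex III and cytochrome c, 20 of complex IV, 5 of the catalytic F1 head of the ATP synthase with its central stalk, and 10 of its peripheral stalk and membrane part. The symbols also took in 3 genes that do not encode subunits: Cox4nb (Emc8, part of a membrane insertion complex of the endoplasmic reticulum), Atp5s and Atp5sl (Dmac2, a complex I assembly protein).

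RNA sequencing was done on hypothalamus from mice of the line Wfs1tm1Koks. Wfs1 codes for wolframin, which sits in the membrane of the endoplasmic reticulum. The groups were wild-type, heterozygous and homozygous for the mutant allele, with 4 individuals and 4 libraries each, and all 12 sample labels carry the same line name. The count column of homozygous library 5 matches no label by its number and was placed by genotype. Age, sex and treatment are not stated in the labels used here, nor is the part of Wfs1 that the allele alters. In bulk tissue, fewer cells of a type and less RNA per cell cannot be told apart, and p-values rest on the spread between these individuals alone.

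Oxidative phosphorylation makes most of the ATP of neurons. Complexes I and II pass electrons from NADH and succinate to ubiquinone, complex III passes them to cytochrome c, and complex IV passes them to oxygen. The proton gradient built along the way drives the ATP synthase, a rotary enzyme whose catalytic head holds alternating alpha and beta subunits. Most subunits are encoded in the nucleus, and a small set that includes the catalytic centre of complex IV is encoded by mitochondrial DNA. The mitochondrially encoded genes were not analysed here.

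Total counts were 979394 to 2330872 per library. Wfs1 checked the labels: it stood at 114 to 167 CPM (counts scaled to library size) in wild-type, 81.8 to 103 in heterozygous and 14.8 to 20.1 in homozygous libraries. Homozygous libraries 4 and 5 stood apart from the rest, and library 5 carries a number that no homozygous label has. A GC score, the slope of a library's log2 deviation on the GC percent of the transcripts, was −0.0479 and −0.0524 in these libraries and −0.00290 to 0.0334 in the other 10. Rn45s, the ribosomal RNA precursor, was at 95.6 and 85.8 CPM in them, at 316 and 352 CPM in the other homozygous libraries, at 352 to 788 CPM in heterozygous and at 958 to 1983 CPM in wild-type libraries. Among cell type markers, the summed level of 9 neuron genes was 7648 to 9168 CPM in wild-type and 9527 to 10978 CPM in homozygous libraries, with 4 genes called higher and 1 lower. Few genes carried this sum, and they moved both ways. From the wild-type to the homozygous mean, Snap25 went from 2840 to 4333 CPM and Syp from 2980 to 2187 CPM. The 6 endothelium and pericyte genes summed to 131 to 165 CPM in wild-type and 89.6 to 119 CPM in homozygous libraries, with 2 called lower and none at 0 in all libraries. The 8 astrocyte genes summed to 4445 to 5577 CPM in wild-type and 5225 to 6682 CPM in homozygous libraries (2 called higher, 3 lower), and the 9 oligodendrocyte genes to 3358 to 4192 and 2330 to 3742 CPM (2 higher, 1 lower). Most of the astrocyte sum was Slc1a2, which went from 3031 to 3639 CPM in the means, while Slc1a3 went from 622 to 567 CPM. A sum therefore does not give the direction of its list as a whole. None of the 5 microglia genes tested was called. As a check of the tissue, 12 hypothalamus genes summed to 946 to 1555 CPM over all libraries, most of it from Pmch (869 CPM in the wild-type mean), and 5 telencephalon genes to 14.7 to 34.1 CPM. Of 10 hypothalamus genes tested, 1 was called higher and 3 lower in homozygous mice. Over all genes tested, 13.7% were called higher and 11.6% lower in homozygous against wild-type mice. The part of these shifts in the results below was not tested, apart from the values given without homozygous libraries 4 and 5 and with the GC score.

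The following stretches are the bases just before the RefSeq start of 4 called members, on the strand of the gene (GRCm38.p6, the assembly of mm10). They are shown because Atp5b was the member with the most counts and the smallest p, Sdha and Ndufaf4 are called members with the NRF1 motif, and Cox6b1 is a called member with the ETS motif, the letters bound by GABP. Capitals mark the NRF1 motif or the ETS motif (CCGGAAG), each read on either strand. Their coordinates are chr10:128083057-128083306 (plus strand) for Atp5b, chr13:74350241-74350490 (minus strand) for Sdha, chr4:24897833-24898082 (plus strand) for Ndufaf4 and chr7:30626115-30626364 (minus strand) for Cox6b1.
Atp5b: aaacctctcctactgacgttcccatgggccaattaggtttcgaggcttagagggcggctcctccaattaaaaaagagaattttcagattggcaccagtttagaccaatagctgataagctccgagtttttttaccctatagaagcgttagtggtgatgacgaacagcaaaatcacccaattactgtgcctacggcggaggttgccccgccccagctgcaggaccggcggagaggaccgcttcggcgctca
Sdha: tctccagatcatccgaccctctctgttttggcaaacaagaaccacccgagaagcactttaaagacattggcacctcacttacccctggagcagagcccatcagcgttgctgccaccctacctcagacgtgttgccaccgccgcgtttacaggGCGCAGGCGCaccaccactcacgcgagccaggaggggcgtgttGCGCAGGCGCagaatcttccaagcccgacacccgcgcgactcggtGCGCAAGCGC
Ndufaf4: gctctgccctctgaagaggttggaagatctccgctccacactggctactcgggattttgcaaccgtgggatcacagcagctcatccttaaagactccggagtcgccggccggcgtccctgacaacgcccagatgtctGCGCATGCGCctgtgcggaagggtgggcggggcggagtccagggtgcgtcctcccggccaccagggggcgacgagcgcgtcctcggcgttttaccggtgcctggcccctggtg
Cox6b1: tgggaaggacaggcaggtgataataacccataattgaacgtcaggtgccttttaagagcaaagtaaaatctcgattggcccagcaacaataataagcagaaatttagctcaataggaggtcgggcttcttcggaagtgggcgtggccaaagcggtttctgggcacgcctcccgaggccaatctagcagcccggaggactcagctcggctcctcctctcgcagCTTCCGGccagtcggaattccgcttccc

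Over windows from 250 bases before to 50 bases after the start, 72 of the 92 members matched a RefSeq window, with 77 windows in all. The NRF1 motif lay in 19 of the 77 (24.7%), against 9.63% of the windows of the other genes tested and 4.60% of all windows. The ETS motif lay in 17 (22.1%, against 16.1% and 8.86%), and the YY1 motif in 5 (6.49%, against 1.95% and 0.852%). Of the 7 windows of members called higher in homozygous mice, 2 held the NRF1 motif and 0 the ETS motif. Of the 6 windows of members called lower, 1 held the NRF1 motif and 3 the ETS motif. A match is a run of letters and does not show binding.

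In wild-type hypothalamus, Atp5b, the catalytic beta subunit of the ATP synthase, had the highest level per transcript length of all members, at 814 ± 43.8 CPM per kilobase (SD, n = 4). Its range did not overlap that of the next gene, Cox8a, at 254 ± 32.0 CPM per kilobase. Below it the order was close: Atp5a1 (the alpha subunit) stood at 254 ± 36.2, Cox6a1 at 240 ± 23.0 and Ndufb9 at 237 ± 38.4 CPM per kilobase, and the ranges of these neighbours overlapped. Further leading genes of their classes were Uqcrh for complex III (178 ± 16.5), Sdha for complex II (162 ± 16.2) and Atp5g3 for the membrane part of the ATP synthase (205 ± 50.3 CPM per kilobase). Subunits that stand in equal number in an assembled complex had unlike transcript levels, for example Sdha at 162 ± 16.2 and Sdhc at 15 ± 1.03 CPM per kilobase.

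**Figure D1:**
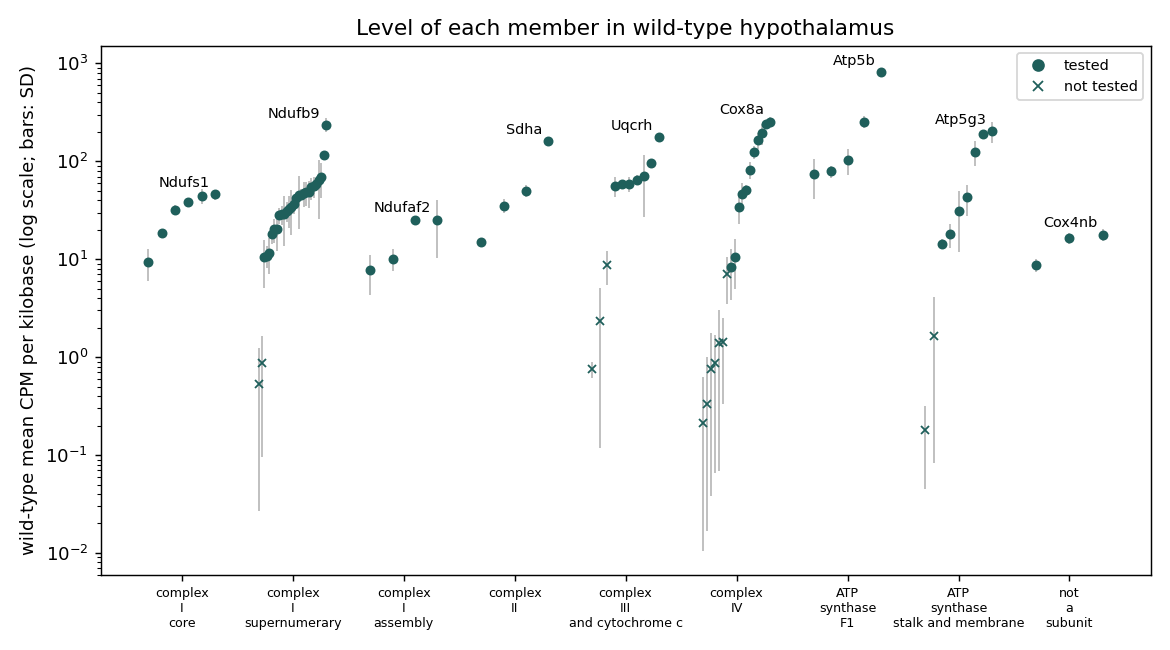
Wild-type mean level of each member in CPM per kilobase of transcript (log y axis), by complex (x axis), with SD over 4 libraries as bars; lower bars that would reach 0 are shortened, and members with no wild-type count and 1 member not reported here are left out. Each class has the name of its highest plotted member. Atp5b stands at 814, above every other member.

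Of the 92 members, 74 passed the filter on low counts and were tested, and 18 did not. Ndufs5, Atp5g2, Cox8b and Cox8c had no count in any library, which allows up to 0.165 CPM over all 12 libraries together and 1.29 to 3.06 CPM in a single library, for counting error only. The other 14 had between 4 counts (Cox4i2) and 56 counts (Uqcr11) over all libraries, and among them were Cycs (cytochrome c, 43 counts), Ndufab1, Ndufb4, Uqcrb, Cox7c and Atp5l, which are ubiquitous subunits. Ubiquitous and tissue-restricted genes were both among the members without a test. Many members have near-identical copies elsewhere in the genome: the share of 35-base words also found in transcripts of other genes had a median of 16.0% in the members not tested, of 2.52% in those tested and of 0.395% over all genes matched. It was 100% for Atp5g2, 85.3% for Atp5l, 54.7% for Uqcrb, 54.5% for Cox7c and 46.0% for Ndufs5. It was 0 for 7 of the 18 members not tested. Among the tested members it was highest for Atp5o (93.1%), where 287 of 530 exon bases are shared with Donson on the same strand. Part of that share can thus come from its own locus. How the counting treated reads from shared stretches is not given in the sources used here, so levels of genes with such stretches are uncertain. The part of the copies in the low counts was not tested. Exon bases shared with another gene of the table were found for 16 of the 74 tested members, on the opposite strand except for Atp5o. Since neither the strand of the counts nor the treatment of shared bases is known, reads there cannot be assigned.

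The isoform pairs of complex IV showed the somatic forms. Cox4i1, which joins complex IV early in its assembly, stood at 145 ± 34.7 CPM in wild-type libraries, and Cox4i2, its counterpart in lung and low oxygen, was at 0 to 0.725 CPM in all 12. Cox6a1 stood at 137 ± 13.1 and Cox8a at 140 ± 17.6 CPM, while the muscle forms Cox6a2 and Cox7a1 were at 0 to 2.6 and 0 to 2.66 CPM and Cox8b was at 0. The 5 muscle marker genes summed to 0 to 4.55 CPM. Cox7a2 was at 30.3 ± 9.34 CPM and the related Cox7a2l, which takes part in supercomplexes, at 11.3 ± 5.92 CPM in wild-type libraries. Of the 3 genes for the proton-carrying c subunit of the ATP synthase, Atp5g3 stood at 146 ± 35.9 CPM, Atp5g1 at 0.848 ± 0.640 CPM, and Atp5g2 was at 0. All 35-base words of Atp5g2 are shared with other genes, so its count of 0 does not show that the gene is silent. Ndufa4 was at 49.8 ± 9.79 CPM and its paralog Ndufa4l2 at 0 to 1.84 CPM over all libraries. Between homozygous and wild-type mice, Cox4i1 and Ndufa4 were called (values below), while Cox6a1 (log2 fold change −0.16, adjusted p = 0.42), Cox8a (−0.06, adjusted p = 0.789), Cox7a2 (0.29, adjusted p = 0.365), Cox7a2l (0.27, adjusted p = 0.614) and Atp5g3 (0.52, adjusted p = 0.0623) were not.

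Homozygous mice were first set against wild-type mice, to see which members differ with 2 mutant alleles. The members split. The alpha and beta subunits of the F1 head of the ATP synthase, the catalytic flavoprotein of complex II, 3 supernumerary subunits and 1 assembly factor of complex I and Ndufa4 rose, and 2 core subunits of complex I, Uqcrc1 of complex III, Cox4i1 and Cox6b1 of complex IV, Atp5j of the ATP synthase and Atp5sl fell. In all, 15 of the 74 tested members were called (20.3%; 8 higher, 7 lower), where 25.4% of all genes tested were called (13.7% higher, 11.6% lower), by edgeR with a Benjamini-Hochberg adjusted p under 0.05 over 10737 genes. The median log2 fold change was 0.02 over the members, with a range of −0.98 to 0.87, and −0.03 over all genes tested. With the GC offset these medians were 0.18 and −0.01, and with library totals alone −0.15 and −0.19. The share of members called was not above that of all genes. The counts by complex below come from few genes each and stand beside the same share of all genes. With scaling to library totals alone 18 members were called, 5 higher and 13 lower, where 8.56% of all genes were called higher and 20.5% lower, and the median of all genes moved by −0.17 on the log2 scale. With an offset for GC content 16 were called, 12 higher and 4 lower, where 12.4% of all genes were called higher and 8.98% lower, and 8 of the 15 were among them. That offset ended the calls of Ndufaf4, Ndufa4, Uqcrc1, Ndufv1, Ndufs8, Atp5j and Atp5sl, and library totals alone those of Sdha, Ndufa10 and Ndufa4.

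**Figure D2:**
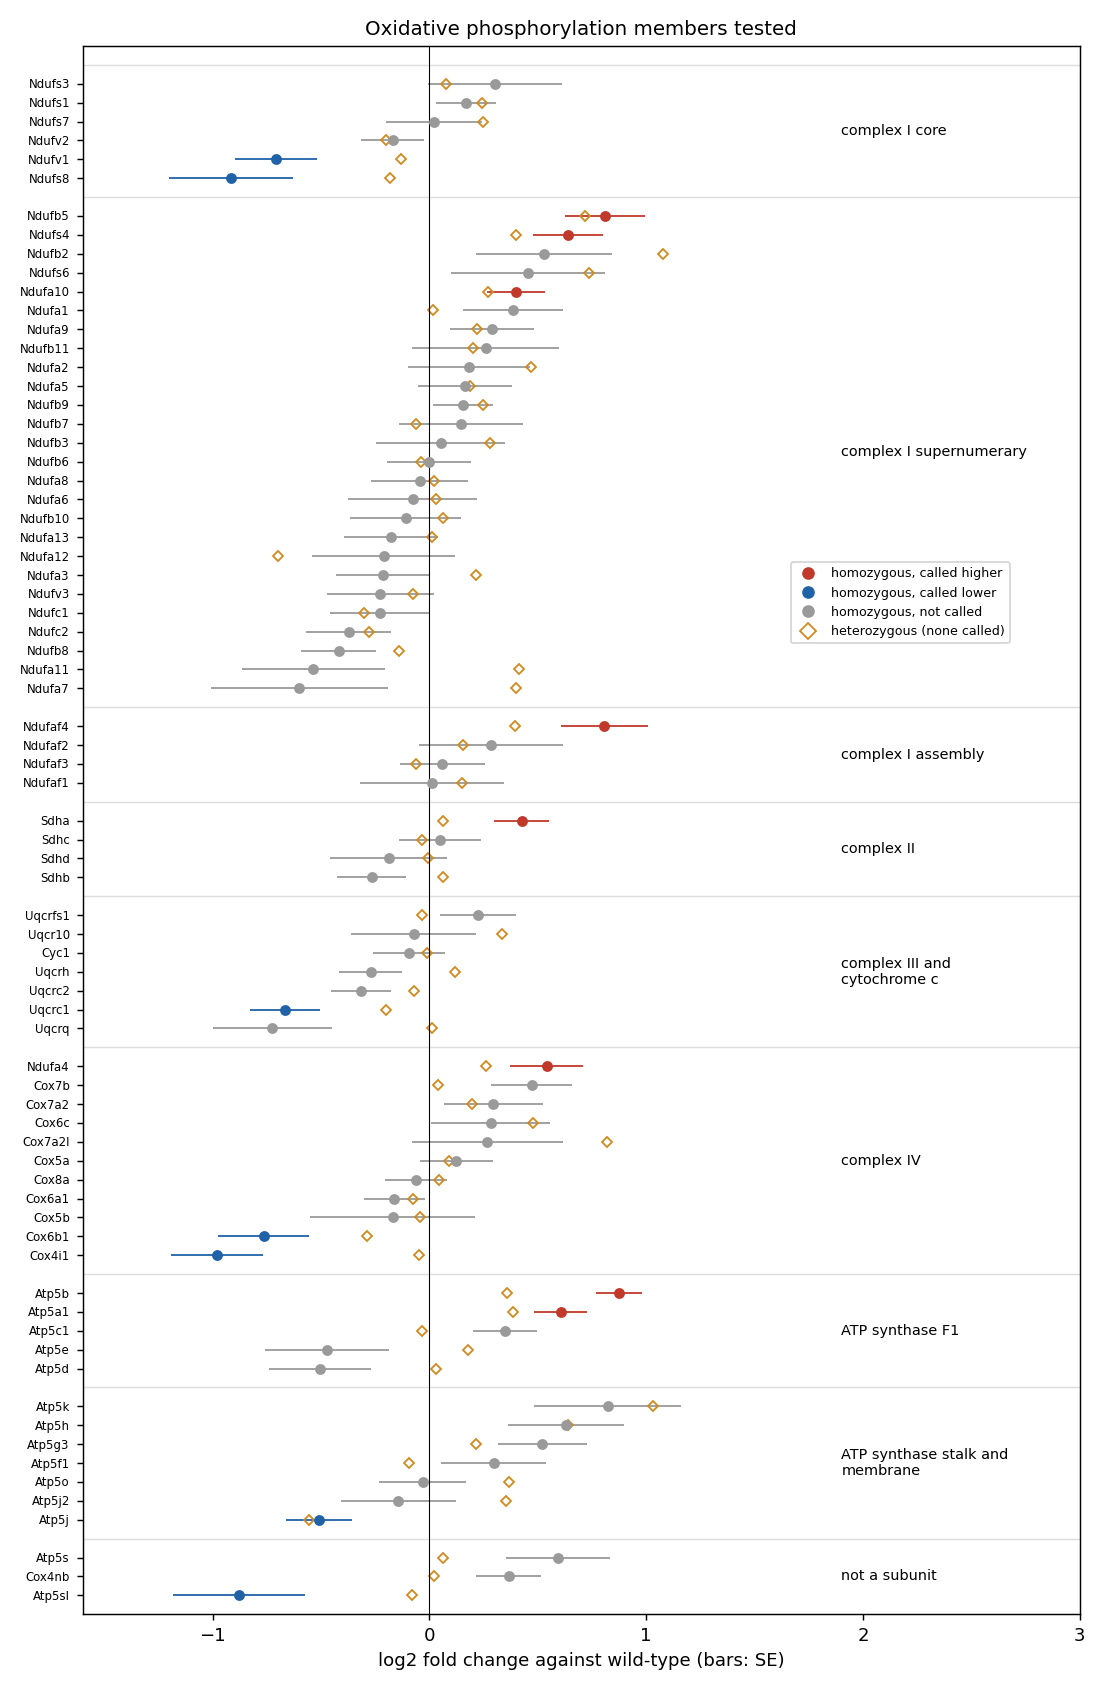
Log2 fold change against wild-type (x axis) of the 74 tested members without 1 that is not reported here (y axis, by complex): circles with SE bars for homozygous mice, open diamonds for heterozygous mice. Called members in homozygous mice lie on both sides of 0, from −0.98 (Cox4i1) to 0.87 (Atp5b), and no diamond is a called change.

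Without homozygous libraries 4 and 5, 7 members were called (4 higher, 3 lower; 11.9% of all genes), and 5 of these were among the 15: Atp5b, Atp5a1, Ndufb5, Cox4i1 and Atp5j. With the GC score as a covariate 3 were called (1 higher and 2 lower, beside 4.31% of all genes), and Atp5b and Atp5j were among the 15. The GC score was 0.00266 to 0.0334 in wild-type and −0.0524 to 0.00195 in homozygous libraries, without overlap. This fit therefore cannot fully separate the GC score from genotype, and a call that ended in it cannot be assigned to either. The GC percent of the transcript differed with the direction. The 8 members called higher had a median GC of 48.3% (39.5 to 52.1%) and the 7 called lower of 56.7% (51.0 to 57.8%), and over all genes the medians were 45.2% and 55.1%. Across the 74 members, which share the same libraries, GC percent and log2 fold change had r = −0.48 (rho = −0.47), and across 10623 genes r = −0.47 (rho = −0.49). The part of base composition in the calls was not tested beyond the fits with GC offset and GC score.

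**Figure D3:**
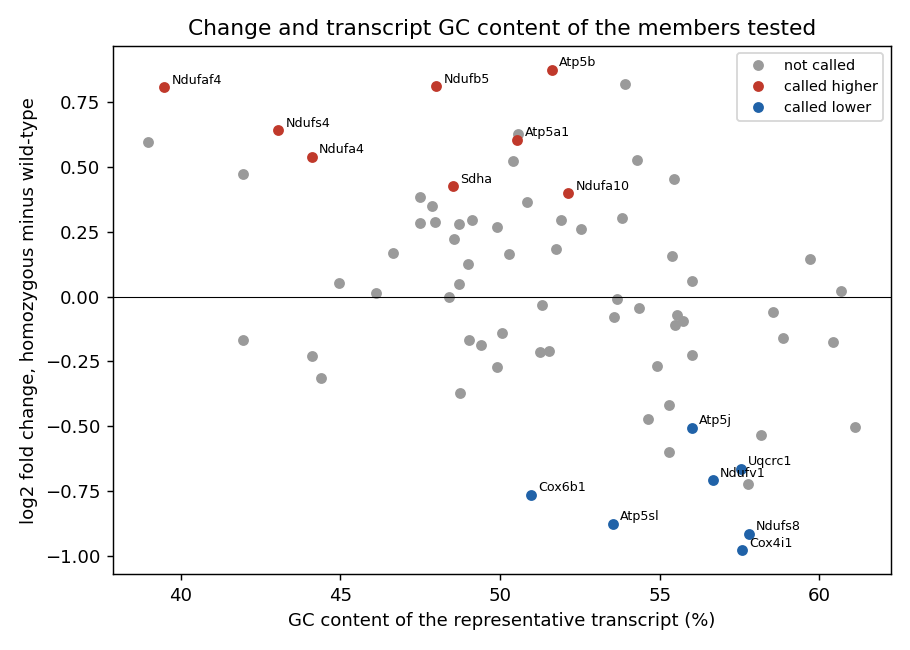
Log2 fold change of homozygous against wild-type mice (y axis) by GC percent of the representative transcript (x axis) for the 74 tested members, coloured by call. Called-lower members lie at 51.0% GC or above and called-higher members at 52.1% or below.

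The ATP synthase held the member with the smallest p. Atp5b (ENSMUSG00000025393.12, chr10:128083273-128090391, plus strand) stood at 1568, 1537, 1465 and 1668 CPM in wild-type libraries, at 1928, 1871, 2168 and 2038 CPM in the heterozygous libraries and at 2422, 2603, 3076 and 3378 CPM in the homozygous libraries. The 3 genotypes did not overlap, and heterozygous libraries lay between the others. Against wild-type, Atp5b was 1.83-fold higher in homozygous mice (a log2 fold change of 0.87 with SE 0.108, edgeR adjusted p = 9.26e-06). None of the 23 alternative settings ended this call, with log2 fold changes of 0.58 to 0.99; without homozygous libraries 4 and 5 it was 0.69 (adjusted p = 2.48e-05), and with the GC score as a covariate it was 0.58 (adjusted p = 0.00179). Its share of all counts was 0.159 to 0.177% in wild-type, 0.195 to 0.213% in heterozygous and 0.234 to 0.308% in homozygous libraries.

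Atp5a1, the alpha subunit, which alternates with beta in the head, stood at 584, 567, 596 and 759 CPM in wild-type, 815, 732, 839 and 893 CPM in heterozygous and 1077, 771, 931 and 1053 CPM in homozygous libraries. All homozygous values lay above all wild-type values, and the lowest of them lay just above the highest wild-type value. Against wild-type it was 1.52-fold higher in homozygous mice (a log2 fold change of 0.61 with SE 0.123, edgeR adjusted p = 0.00112), and 0.50 with the GC score, where the call ended. The other 3 members of this class form the central stalk and were not called: Atp5c1 (gamma) had a log2 fold change of 0.35 (adjusted p = 0.084), Atp5d (delta) of −0.50 (adjusted p = 0.12) and Atp5e (epsilon) of −0.47 (adjusted p = 0.233). The F1 genes together took 0.234 to 0.286% of all counts in wild-type, 0.298 to 0.318% in heterozygous and 0.346 to 0.423% in homozygous libraries, most of it Atp5b.

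In the stalk and membrane class 7 of 10 members were tested and 1 was called, lower. Atp5j, coupling factor 6 of the peripheral stalk, stood at 143, 178, 155 and 139 CPM in wild-type, 135, 100, 93.5 and 89.0 CPM in heterozygous and 86.3, 106, 117 and 127 CPM in homozygous libraries. Wild-type libraries lay above all others, and the mutant genotypes overlapped. Atp5j fell by 0.51 on the log2 scale in homozygous mice (SE 0.151, edgeR adjusted p = 0.0164), but the call was lost with the GC offset (−0.17), without wild-type replicate 2 (adjusted p = 0.0659) and without homozygous replicate 1 (adjusted p = 0.0545). Its exons share 182 bases with those of Gabpa on the opposite strand, and Gabpa was called higher (below), so the assignment of reads there is uncertain. Not called were Atp5k (subunit e, 0.82, adjusted p = 0.077) and Atp5h (subunit d, 0.63, adjusted p = 0.0874), both from low counts, as well as Atp5g3, whose values were 154, 96.9, 150 and 183 CPM in wild-type and 152, 147, 275 and 286 CPM in homozygous libraries. Atp5g3 was high in homozygous libraries 4 and 5 and within the wild-type range in the others.

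In complex I, 33 of 36 subunits were tested, with 3 called higher and 2 lower and a median log2 fold change of 0.00. Both lower calls were core subunits. Ndufv1, the flavoprotein at which NADH is oxidised, stood at 52.9, 49.9, 62.6 and 48.5 CPM in wild-type, 54.0, 51.5, 39.2 and 50.0 CPM in heterozygous and 41.8, 34.2, 22.0 and 31.4 CPM in homozygous libraries. Homozygous values lay below all wild-type values, and the heterozygous range overlapped both the wild-type and the homozygous one. Ndufv1 fell by 0.71 on the log2 scale (SE 0.189, edgeR adjusted p = 0.00849), and without homozygous libraries 4 and 5 the value was −0.50 (adjusted p = 0.0937).

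Ndufs8, an iron-sulfur subunit near the ubiquinone site, had few counts, with 19.6, 16.9, 20.1 and 16.6 CPM in wild-type, 17.2, 16.9, 17.4 and 13 CPM in heterozygous and 10.6, 13.8, 4.08 and 7.84 CPM in homozygous libraries. Homozygous library 4 was the lowest, and homozygous and wild-type libraries did not overlap. Ndufs8 fell by 0.92 (SE 0.286, edgeR adjusted p = 0.0212). Its call was lost without wild-type replicate 3 (−0.86, adjusted p = 0.0648), without homozygous replicate 4 (−0.69, adjusted p = 0.0781) and without homozygous libraries 4 and 5 (−0.56, adjusted p = 0.216). The other 5 core members were not called and lay at −0.17 (Ndufv2) to 0.30 (Ndufs3).

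The 3 supernumerary subunits that rose were Ndufb5, Ndufs4 and Ndufa10, and none of this class was called lower, while 13 of its 26 tested members had negative log2 fold changes, down to −0.60. Ndufb5, of the membrane arm, stood at 61.6, 51.7, 69.1 and 117 CPM in wild-type, 134, 116, 118 and 134 CPM in heterozygous and 137, 115, 131 and 157 CPM in homozygous libraries. Wild-type replicate 5 lay at the level of the mutant genotypes and the other wild-type libraries lay below all mutant ones. Ndufb5 was 1.76-fold higher in homozygous mice (log2 fold change 0.81, SE 0.184, edgeR adjusted p = 0.00265), a call that ended only with the GC score (0.68, adjusted p = 0.079). Its exons share 158 bases with Mrpl47 on the opposite strand.

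Ndufs4, an accessory subunit of the NADH-oxidising arm, stood at 83.4, 85.6, 61.9 and 80.4 CPM in wild-type, 109, 98.1, 109 and 95.5 CPM in heterozygous and 96.3, 105, 125 and 167 CPM in homozygous libraries. All mutant libraries lay above all wild-type ones, and homozygous libraries 4 and 5 were the highest. The log2 fold change was 0.64 (SE 0.162, edgeR adjusted p = 0.00577), and 0.38 (adjusted p = 0.106) without those libraries. Ndufa10 rose from 85.0 ± 8.11 CPM in wild-type to 113 ± 4.29 CPM in homozygous mice (log2 fold change 0.40, SE 0.135, edgeR adjusted p = 0.0323), and leaving out wild-type replicate 2 or 3 or homozygous replicate 1 or 4 ended the call, with adjusted p of 0.0598 to 0.0894.

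Of the 4 complex I assembly factors 1 was called. Ndufaf4 stood at 50.0, 32.0, 28.8 and 36.8 CPM in wild-type, 50.9, 54.4, 47.1 and 41.6 CPM in heterozygous and 53.1, 52.0, 86.6 and 72.8 CPM in homozygous libraries. Homozygous libraries 4 and 5 were high, and the other homozygous libraries lay just above the highest wild-type library. Ndufaf4 was 1.75-fold higher (log2 fold change 0.81, SE 0.201, edgeR adjusted p = 0.00519), and without homozygous libraries 4 and 5 the value was 0.50 (adjusted p = 0.102). It had the lowest GC percent of the called members (39.5%). Atp5sl, known as Dmac2 and an assembly protein as well, went the other way, from 20.9 ± 3.26 CPM in wild-type to 10.5 ± 4.75 CPM in homozygous mice (log2 fold change −0.88, SE 0.305, edgeR adjusted p = 0.0365). Its call ended without wild-type replicate 1, 2 or 3 or without homozygous replicate 4 or 5, with adjusted p of 0.0633 to 0.113.

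In complex II all 4 subunits were tested and 1 was called. Sdha, the flavoprotein that oxidises succinate, stood at 406, 467, 488 and 517 CPM in wild-type, 498, 579, 416 and 469 CPM in heterozygous and 566, 554, 662 and 754 CPM in homozygous libraries. Every homozygous library lay above every wild-type library, and the heterozygous range reached into both. Sdha was 1.34-fold higher (log2 fold change 0.43, SE 0.126, edgeR adjusted p = 0.0158). The omission of wild-type replicate 1 ended the call (0.37, adjusted p = 0.051), as did that of homozygous replicate 5 (0.34, adjusted p = 0.0605) and of homozygous libraries 4 and 5 together (0.26, adjusted p = 0.191). Sdhb, Sdhc and Sdhd, the iron-sulfur subunit and the membrane anchors, were not called and lay at −0.27 to 0.05.

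In complex III and cytochrome c, 7 of 10 genes were tested and 1 was called. Uqcrc1, a core protein of the complex, stood at 95.7, 120, 114 and 100 CPM in wild-type, 73.8, 103, 108 and 88.3 CPM in heterozygous and 66.4, 85.4, 59.6 and 54.9 CPM in homozygous libraries. Homozygous libraries lay below all wild-type libraries, and the heterozygous range overlapped both. Uqcrc1 fell by 0.67 on the log2 scale (SE 0.162, edgeR adjusted p = 0.0044), and the value without homozygous libraries 4 and 5 was −0.48 (adjusted p = 0.0577). It was −0.29 (adjusted p = 0.147) with the GC offset and −0.32 (adjusted p = 0.38) with the GC score, and the call ended in each of these settings. Of the 7 tested genes 6 had negative log2 fold changes, with a median of −0.27, where 5596 of all 10737 genes tested were negative, with a median of −0.03. The next by p was Uqcrq (−0.72, edgeR adjusted p = 0.0549, not called). The genes of this class together took 0.0618 to 0.0698% of all counts in wild-type, 0.0593 to 0.0675% in heterozygous and 0.0445 to 0.0526% in homozygous libraries. The homozygous libraries lay below both other genotypes in this sum.

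In complex IV 11 of 20 genes were tested, with 1 called higher and 2 lower. Cox4i1 (ENSMUSG00000031818.12, chr8:120668222-120674207, plus strand) stood at 164, 93.1, 158 and 165 CPM in wild-type, 146, 149, 112 and 156 CPM in heterozygous and 94.9, 97, 52.3 and 42.6 CPM in homozygous libraries. Wild-type replicate 2 lay at the level of homozygous libraries 1 and 2, so the genotypes overlapped there, and homozygous libraries 4 and 5 were the lowest of all. Against wild-type, Cox4i1 was 1.97-fold lower in homozygous mice (a log2 fold change of −0.98 with SE 0.212, edgeR adjusted p = 0.00189). Without homozygous libraries 4 and 5 it was −0.60 (adjusted p = 0.0197), and with the GC score −0.43 (adjusted p = 0.266), where the call ended.

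Cox6b1, which faces the intermembrane space, stood at 97.9, 81.9, 100 and 126 CPM in wild-type, 83.3, 93.2, 80.5 and 77.3 CPM in heterozygous and 99.6, 50.3, 37.6 and 51.5 CPM in homozygous libraries. Homozygous replicate 1 lay within the wild-type range and the other homozygous libraries lay below every other library. Cox6b1 fell by 0.76 on the log2 scale (SE 0.211, edgeR adjusted p = 0.0104), and the value was −0.48 (adjusted p = 0.102) without homozygous libraries 4 and 5. Ndufa4, once assigned to complex I and now to complex IV, rose, with 47.9, 36.7, 56.8 and 57.7 CPM in wild-type, 59.1, 49.1, 60.9 and 73.4 CPM in heterozygous and 71.0, 73.8, 76.8 and 71.7 CPM in homozygous libraries. The homozygous libraries lay close together and above all wild-type ones (log2 fold change 0.54, SE 0.167, edgeR adjusted p = 0.0199), and leaving out wild-type replicate 2 ended the call (0.44, adjusted p = 0.0694).

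**Figure D4:**
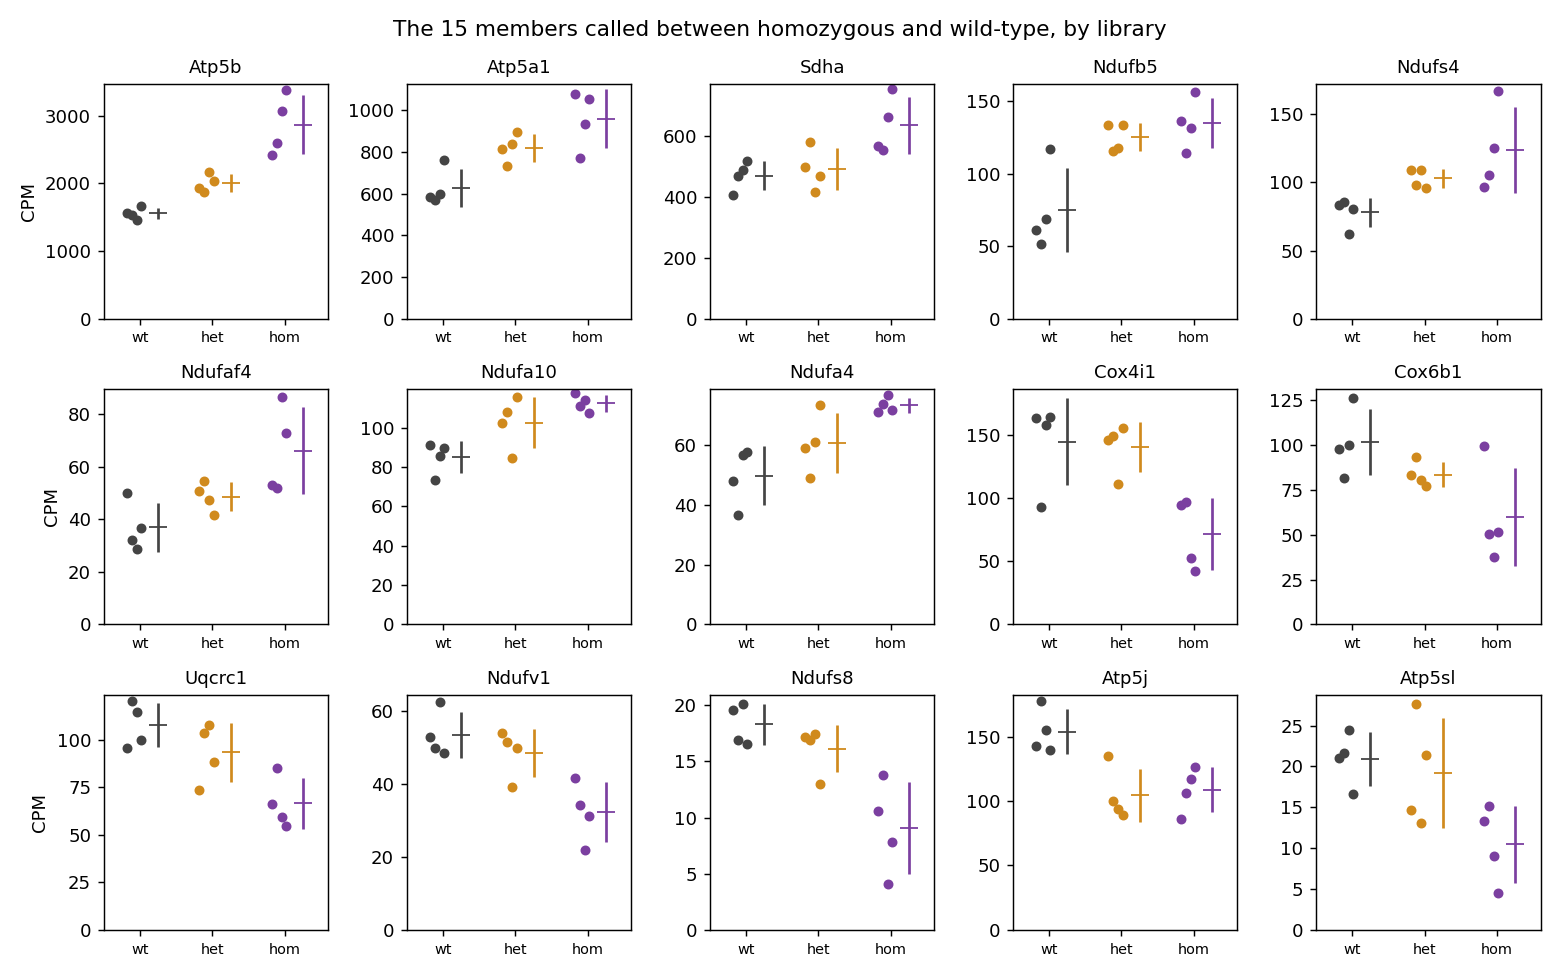
CPM (y axis, from 0) of the 15 members called between homozygous and wild-type mice in each of the 12 libraries (points) by genotype (wt wild-type, het heterozygous, hom homozygous), with mean and SD beside the points. Atp5b separates the 3 genotypes, from 1465 to 1668 CPM in wild-type to 2422 to 3378 CPM in homozygous libraries, while Cox4i1 and Cox6b1 each have 1 or more libraries in the range of the other genotype.

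Atp5b and Cox4i1 had the highest and the lowest log2 fold change of the members, and their counts within each library were set against each other. The pair was chosen after the values were seen, so the ratio restates their calls and is no separate support. Scaling of libraries cannot change it, but a shift with GC content can. With the GC offset the log2 fold change against wild-type was −0.62 for Cox4i1 and 0.99 for Atp5b, in place of −0.98 and 0.87. There were 9.57, 16.5, 9.25 and 10.1 Atp5b counts per Cox4i1 count in wild-type, 13.2, 12.5, 19.4 and 13.1 in heterozygous and 25.5, 26.8, 58.9 and 79.4 in homozygous libraries. The homozygous libraries did not overlap the others, and homozygous libraries 4 and 5 were the highest. All members together took 0.607 to 0.782% of counts in wild-type, 0.734 to 0.763% in heterozygous and 0.745 to 0.853% in homozygous libraries. Without Atp5b these shares were 0.449 to 0.606%, 0.521 to 0.568% and 0.482 to 0.552%, and the 3 genotypes overlapped. The shares rest on library totals. In CPM, which use the TMM factors, all members summed to 5886 to 7388 in wild-type, 7332 to 7494 in heterozygous and 7720 to 9356 in homozygous libraries. On that scale the homozygous libraries lay above all others, so the overlap for all members depends on the scaling.

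**Figure D5:**
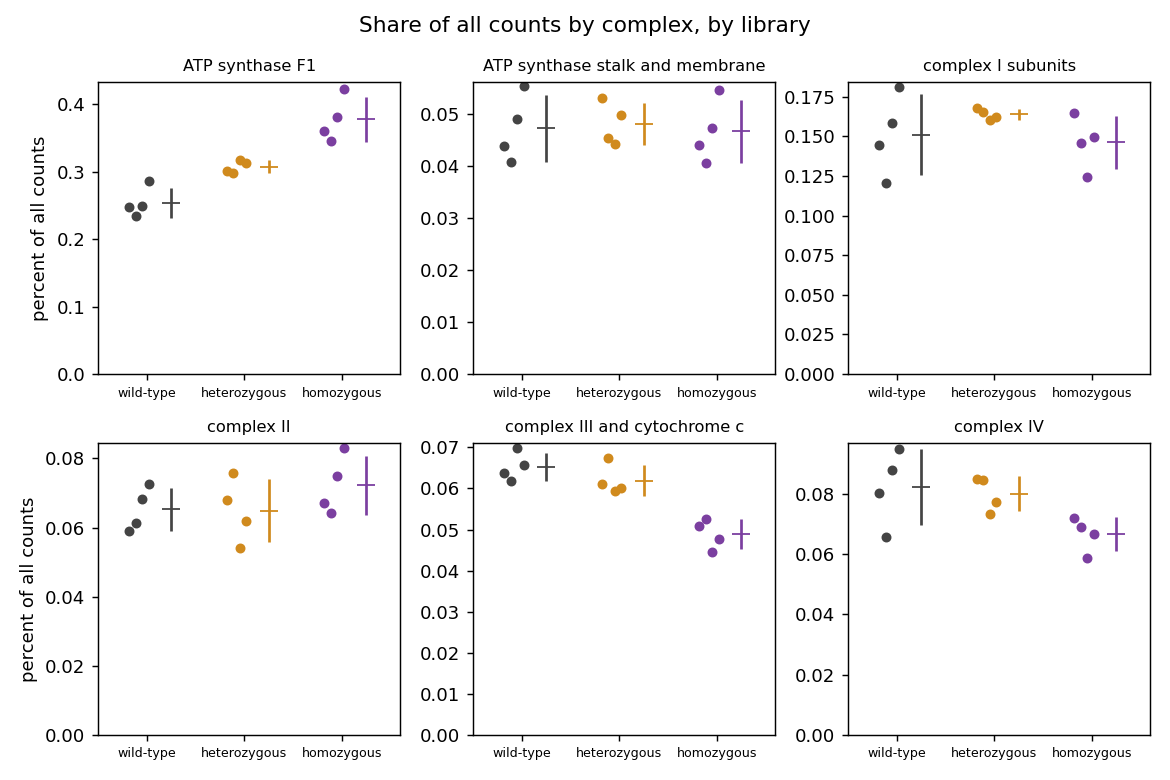
Share of all counts (y axis, percent, from 0) taken by the genes of each complex in each of the 12 libraries (points) by genotype (x axis), with mean and SD beside the points. The F1 genes are at 0.234 to 0.286% in wild-type and at 0.346 to 0.423% in homozygous libraries, complex III is at 0.0445 to 0.0526% in homozygous libraries, and the complex I shares of the genotypes overlap.

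Heterozygous mice were set against wild-type mice, to see which members differ with 1 mutant allele. No member passed the test: edgeR called 0 of 74, where 0.596% of all genes tested were called, and 10 members (13.5%) had an unadjusted p under 0.05, near the 14.2% of all genes tested. DESeq2 called 3 of the 43 members to which it gave an adjusted p (4.17% of all such genes), and limma-voom called 5 of 74 (3.67% of all genes). The median log2 fold change was 0.06 and the range −0.70 (Ndufa12) to 1.08 (Ndufb2). Of the 10, Atp5j was negative (−0.55, adjusted p = 0.0936) and the others were positive: Ndufb5 (0.72, adjusted p = 0.0689), Ndufb2 (1.08, adjusted p = 0.0951), Atp5b (0.36, adjusted p = 0.121), Atp5k (1.03, adjusted p = 0.143), Atp5a1 (0.38, adjusted p = 0.149), Cox7a2l, Ndufs4, Atp5h and Ndufs6. Atp5b was 2001 ± 131 CPM in heterozygous against 1559 ± 84.0 CPM in wild-type mice, without overlap. Ndufb5 was 125 ± 9.65 against 74.9 ± 29.1 CPM, and wild-type replicate 5 (117 CPM) lay within the heterozygous range. This comparison and the one above share the wild-type libraries.

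Between homozygous and heterozygous mice 2 of the 74 members were called, where 2.2% of all genes tested were called (1.74% higher, 0.456% lower). Atp5b was 1.43-fold higher in homozygous mice (log2 fold change 0.52, SE 0.107, edgeR adjusted p = 0.0184), and Cox4i1 was 1.9-fold lower (−0.93, SE 0.211, edgeR adjusted p = 0.0281). Both calls ended in 9 of the 23 alternative settings, among them those without heterozygous replicate 1, 2 or 4 and without homozygous replicate 4 or 5, with adjusted p of 0.0602 to 0.105 for Atp5b and of 0.0711 to 0.118 for Cox4i1. Without homozygous libraries 4 and 5 together the log2 fold changes were 0.33 (adjusted p = 0.321) and −0.56 (adjusted p = 0.291).

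Of other genes of the pathway, 67 were tested. Between homozygous and wild-type mice 9 were called higher and 8 lower, beside 13.7% and 11.6% of all genes. These 17 of 67 are near the 25.4% of all genes tested that were called, so as a list they did not stand out. None was called between heterozygous and wild-type mice, and 1 was called between homozygous and heterozygous mice. Without homozygous libraries 4 and 5, 8 of the 17 were still called against wild-type (6 higher, 2 lower): Atpif1, Coq5, Dlat, Gabpb1, Higd1a, Ppargc1a, Cox15 and Idh3a. Among 23 assembly factors, Higd1a rose (54.4 ± 10.3 to 112 ± 26.5 CPM; log2 fold change 1.02, edgeR adjusted p = 0.000607; 0.72 without those libraries) and so did the complex III factor Ttc19 (0.47, adjusted p = 0.0189), while Cox15, which makes the heme A of complex IV, fell (44.1 ± 10.2 to 20.7 ± 5.57 CPM; −1.02, adjusted p = 0.00328), as did Higd2a (−0.61, adjusted p = 0.0102). Atpif1, the inhibitor protein that binds the F1 head, rose from 84.8 ± 11.5 to 148 ± 19.6 CPM (0.78, adjusted p = 0.000548). Its wild-type libraries were at 71.5 to 95.2 CPM and its homozygous libraries at 127 to 174 CPM, without overlap.

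Among 8 regulators of mitochondrial biogenesis, 3 were called higher and 1 lower, where 13.7% of all genes were called higher and 11.6% lower. Ppargc1a, the coactivator of the programme, rose from 172 ± 39.1 to 297 ± 36.1 CPM (log2 fold change 0.77, edgeR adjusted p = 0.000675). Both subunits of the ETS factor GABP rose, Gabpb1 (0.71, adjusted p = 0.00311) and Gabpa (0.52, adjusted p = 0.0242). Nrf1, the factor named for the NRF1 motif above, fell from 14.1 ± 3.42 to 6.91 ± 1.07 CPM (−0.98, adjusted p = 0.022). Without homozygous libraries 4 and 5, Nrf1 was at −0.85 (edgeR adjusted p = 0.125) and not called. The transcripts of Ppargc1a, Gabpa and Gabpb1 had 41.7, 43.7 and 44.3% GC, and that of Nrf1 had 52.4%. Values with the GC offset or the GC score are not given for these genes. None of 6 genes of mitochondrial transcription and DNA passed the test, Tfam being at −0.36 (adjusted p = 0.242).

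Of 12 electron carrier and entry genes, Coq5 of ubiquinone synthesis (1.15, edgeR adjusted p = 9.1e-05) and the glycerol phosphate dehydrogenase Gpd2 (0.34, adjusted p = 0.0342) rose. Of 16 genes of the tricarboxylic acid cycle and of the pyruvate dehydrogenase complex that feeds it, 1 rose and 5 fell, beside 13.7% and 11.6% of all genes. Dlat, of the pyruvate dehydrogenase complex, rose from 197 ± 46.8 to 460 ± 149 CPM (1.22, adjusted p = 7.9e-05) and was also called between homozygous and heterozygous mice (0.82, adjusted p = 0.0257). Its homozygous libraries were at 311, 352, 596 and 581 CPM, libraries 4 and 5 being the highest. Without these the value was 0.76 (adjusted p = 0.00058) against wild-type and 0.36 (adjusted p = 0.511) against heterozygous mice, where the call was lost. Those that fell were Mdh2 (−0.51, adjusted p = 0.0149), Pdhb, a partner of Dlat in that complex (−0.63, adjusted p = 0.0169), Ogdh (−0.39, adjusted p = 0.0238), Idh3a and Cs. Dlat and Pdhb, of 1 enzyme complex, were thus called in opposite directions with all libraries. Without homozygous libraries 4 and 5, Pdhb was at −0.46 (edgeR adjusted p = 0.158) and no longer called.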

How the data were processed

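The authors deposited raw counts for 12 hypothalamus libraries, 1 line per gene symbol. Per the labels' protocols, 50 ng of total RNA went into Ovation cDNA and SOLiD libraries read as pairs of 75 and 35 bp. The build was mm10 per the submitters' processing notes; each of aligner, counter, annotation and strand is not given in the sources used here. Homozygous column 5 matches no label number and was placed by genotype, and 1 homozygous label has no column of its number. The protocol speaks of 5 hypothalamus animals per genotype, the design of 4.

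Genes were tested with edgeR 4.0.16 (R 4.3.3): TMM factors (0.908 to 1.08), default filter on low counts (10737 genes left), quasi-likelihood F tests in 1 fit of genotype, common biological coefficient of variation 0.148, Benjamini-Hochberg adjustment over all genes tested, called under 0.05. The SE of a log2 fold change is its size over the square root of F. CPM use the TMM factors, with mean ± SD. Symbols were matched to GENCODE M21 (20717 directly, 1888 by an older symbol, 1415 not at all), with 1 representative transcript per gene (APPRIS principal, support level 1 where there was one, lower median length). Alternatives included DESeq2 1.42.0, limma-voom (limma 3.58.1), other scalings and filters, GC and length offsets, a replicate block and leaving out libraries. The main edgeR fit was also run on simulated counts. These held no GC shift between libraries, so that run does not bear on the GC score. Members and gene lists were chosen with earlier results of these data known. By the rule for names, members called in each class (up to 4 by smallest p) and isoform families are given in full, and other pathway genes up to 4 per list. The values of 1 member are not reported here.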

Additional observations from a re-analysis of the deposited data

Results flagged for a closer look

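In 60 groups of 4 libraries, the CPM of the members given in full were checked for a library far from the other 3 by Dixon's test, which chance alone passes in about 1 in 20 groups. It was passed in 4 groups. Cox4i1 in wild-type replicate 2 was at 93.1 CPM, where the other wild-type libraries were at 158 to 165 CPM. Atp5a1 in wild-type replicate 5 was at 759 CPM, above 567 to 596 CPM in the others. Ndufs8 in heterozygous replicate 4 was at 13 CPM, below 16.9 to 17.4 CPM in the others. Cox7a2l in heterozygous replicate 3 was at 29.0 CPM, above 16.9 to 18.6 CPM in the others.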

How the results depend on the processing

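For homozygous against wild-type mice the count of 15 called members fell to 7 without homozygous libraries 4 and 5 (11.9% of all genes called), to 9 with a replicate block (12.2%) and to 3 with the GC score (4.31%), and it was 12 to 20 when single libraries were left out. For heterozygous against wild-type mice the count of 0 became 3 with DESeq2 (4.17% of genes with an adjusted p called), 5 with limma-voom (3.67% of all genes), 4 with no filter (1.57%), 6 with only the 2 genotypes compared (3.64%), 6 without homozygous libraries 4 and 5 (3.79%), 4 with the replicate block (1.52%), 2 with the GC offset (1.48%) and 4 with the GC score (2.45%), and 0 to 1 with single libraries left out. For homozygous against heterozygous mice the count of 2 became 4 with no filter (4.06% of all genes called) and 0 with only the 2 genotypes compared, without homozygous libraries 4 and 5, with the replicate block and with the GC score. With single libraries left out it was 0 to 8: 7 without homozygous replicate 1 (7.08% of all genes called), 8 without homozygous replicate 2 (8.02%) and 0 without heterozygous replicate 1, 2 or 4 or homozygous replicate 4 or 5. Cox8a between homozygous and wild-type mice reversed with the GC offset (0.38, adjusted p = 0.0239, against −0.06). The replicate block rests on numbers alone. Same-numbered libraries of different genotypes had correlations of −0.27 to 0.34, and differently numbered ones of −0.26 to 0.24. With so few libraries these values cannot decide whether equal numbers pair the samples, and the labels do not say. Wild-type replicate 5 and homozygous library 5 were each alone in their block, so under that setting neither added to the fold changes. The sign of the log2 fold change turned for 14 members with the GC offset and for 9 with library totals alone, which moved the median of all genes by −0.17. The cause of these differences was not tested. With 979394 to 2330872 counts per library, members below a few CPM could not be tested.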
